A study of Mus musculus with 2 samples.

Results

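Open chromatin near the collagen genes was examined in the cells of the embryonic mouse testis. A peak, which is a stretch of DNA cut often by the ATAC transposase, was included when its midpoint lay within 100 kb of the start of a collagen gene in the feature table. Collagen genes were taken as all those with a symbol of the form *Col1a1*, in which both numbers vary. These peaks numbered 642 of the 109215 in the data, and lay around 44 collagen genes. They came in 3 kinds: 36 lay within 1 kb of a collagen start and are called collagen promoter peaks, 69 were as close to the start of another gene, and the other 537 are called distal. The collagen promoter peak farthest from its start was 1000 bp away and the next peak outside lay 1006.5 bp away, while the window itself ended between peaks at 99795.5 and 100128.5 bp. Neither the RNA nor the accessibility of any cell type entered that choice.

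The nuclei came from whole testes of embryos at E14.5, counted in days from conception, that carried *Nr5a1-cre* and *Rosa-tdTomato*, so every class described below shares both alleles. *Nr5a1-cre* drives Cre recombinase from the promoter of *Nr5a1*, a gene of steroid-making and supporting cells. No untreated or wild-type group and no other stage was analysed here, and the number of embryos pooled is not stated in the sources used here. The 10x multiome assay read RNA and open chromatin from the same nuclei, with 1 library for each, so no value below has a replicate.

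Both libraries shared all 9833 barcodes, which held 122049390 RNA molecules (UMIs) and, with fragments of all other barcodes, 58448458 unique ATAC fragments. After quality filters 7198 nuclei were kept, with a median of 7948 UMIs and 1720 fragments at peaks, and 14331699 fragments at peaks in all. Clusters were made from RNA alone with the collagen genes left out, so neither the collagen RNA nor any peak shaped them, and each took the name of the cell type whose markers were highest. The 6 classes with at least 300 nuclei were progenitor-like (2952 nuclei, with 5879024 fragments at peaks), germ-like (974 and 2491204), mesonephric mesenchyme-like (899 and 1866278), Sertoli-like (840 and 1626199), Leydig-like (775 and 1169717) and surface epithelium-like (432 and 667857). Of the markers that named these 6 classes, *Sfrp2* of the mesonephric list was not higher in its own class, at 5.59 CPM (UMIs per 1000000 of the class) against 5.599 in the others, and the rest were. *Cyp17a1*, an enzyme of androgen synthesis, was at 1795 CPM in Leydig-like nuclei against 179 in the others, *Dmrt1*, a transcription factor of Sertoli and germ cells, at 258 in Sertoli-like nuclei against 57.8, and *Ddx4*, an RNA helicase of germ cells, at 444 in germ-like nuclei against 8.76. The mesonephric mesenchyme-like class was mixed. Its score for that name was 1.867 and for contractile 1.781, and without doublet removal the cluster scored highest for contractile (1.957 against 1.868) and stayed unnamed. When clusters were split more finely, 357 of its 899 nuclei (39.7%) kept that name, while 274 (30.5%) became contractile-like, 144 (16.0%) progenitor-like and 124 (13.8%) surface epithelium-like. The progenitor-like class also lost 844 nuclei (28.6%) to the contractile-like name.

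Collagens are triple-helical proteins of the extracellular matrix. Fibrillar collagens such as types I and III form the fibres of connective tissue, type IV collagens form the networks of basement membranes, and other families coat fibrils, form beaded filaments or span the cell membrane. In the fetal testis a basement membrane surrounds the cords of Sertoli and germ cells, and mesenchymal cells of the interstitium, among them the presumed progenitors of Leydig cells, lay down fibrillar matrix.

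The level of a peak is the number of unique fragments cut at least once inside it, summed over the nuclei of a class and given per 1000000 fragments at peaks of that class. Intervals around levels are exact Poisson intervals and those around ratios exact conditional binomial intervals, both at 95%, and both cover counting error only. A peak was called higher in one class when its ratio was at least 2, the lower limit of that ratio was above 1, and at least 20 fragments lay in it over both sides. With 1 library a call compares groups of nuclei of this library, not animals, and no p-value was derived. The same rule over all distal or all promoter peaks of the genome gives the background share beside each count.

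The promoters of 4 collagen genes are shown first, as examples with and without a higher level in progenitor-like nuclei. *Col3a1* and *Col1a2* encode fibrillar chains and *Col16a1* a chain of a fibril-associated collagen, and their promoter peaks had higher levels in progenitor-like than in Leydig-like nuclei, while that of *Col25a1*, a transmembrane collagen, did not. The 250 bases before the start annotated by RefSeq on GRCm38.p6 are printed 5′ to 3′ on the plus strand, which is the coding strand of all of them, with TATAAA and CCAAT in capitals.
Col3a1 promoter, chr1:45311288-45311537: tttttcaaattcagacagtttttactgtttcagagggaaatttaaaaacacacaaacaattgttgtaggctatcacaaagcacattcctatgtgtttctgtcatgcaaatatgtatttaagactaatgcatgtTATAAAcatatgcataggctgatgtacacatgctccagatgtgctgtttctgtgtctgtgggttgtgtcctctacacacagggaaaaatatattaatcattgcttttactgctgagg
Col1a2 promoter, chr6:4505368-4505617: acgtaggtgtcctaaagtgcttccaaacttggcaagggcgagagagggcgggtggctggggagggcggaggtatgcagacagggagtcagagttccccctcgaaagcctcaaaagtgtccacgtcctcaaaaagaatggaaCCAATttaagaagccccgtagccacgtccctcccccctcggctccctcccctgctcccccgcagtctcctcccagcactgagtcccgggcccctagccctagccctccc
Col16a1 promoter, chr4:130047590-130047839: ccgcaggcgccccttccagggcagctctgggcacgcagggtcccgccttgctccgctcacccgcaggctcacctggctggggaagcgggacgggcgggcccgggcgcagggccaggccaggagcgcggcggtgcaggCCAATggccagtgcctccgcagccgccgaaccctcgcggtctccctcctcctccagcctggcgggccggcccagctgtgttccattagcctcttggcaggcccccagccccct
Col25a1 promoter, chr3:130180595-130180844: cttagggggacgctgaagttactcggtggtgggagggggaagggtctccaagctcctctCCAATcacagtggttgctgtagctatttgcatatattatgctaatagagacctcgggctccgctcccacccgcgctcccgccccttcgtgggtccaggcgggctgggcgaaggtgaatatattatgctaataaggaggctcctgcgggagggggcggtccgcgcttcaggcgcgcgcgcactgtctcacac

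TATAAA stood in the *Col3a1* promoter alone among these, and CCAAT on either strand in those of *Col1a2*, *Col16a1* and *Col25a1*. Among 38 RefSeq promoters of 35 collagen genes, TATAAA on either strand was in 13.2%, beside 12.4% of all 32851 promoters. The collagen holders were *Col3a1*, *Col10a1*, *Col11a2*, *Col13a1* and *Col17a1*. CCAAT was in 34.2% of the collagen promoters and 33.8% of all, and GGGCGG, the GC box, in 57.9% and 32.7%. In the 300 bases at the centre of the promoter peaks the GC box was about as frequent near collagen genes (63.9%) as at all promoter peaks (63.2%).

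Distal peaks with large differences between classes are shown next, as the 300 bases at the peak centre. All are read on the plus strand of GRCm38.p6, the same assembly as the mm10 build of the files. Capitals mark matches on either strand to any of the motifs searched. The site of AP-1, the dimer of Fos and Jun proteins, was searched as TGANTCA. The core that nuclear receptors bind was searched as AGGTCA, and CAAGGTCA, which contains that core, is the site of steroidogenic factor 1, the product of *Nr5a1*. A SOX site, bound by relatives of Sox9, was searched as ACAAAG. For GATA factors, among them Gata4 of the gonad, the letters were AGATAA. The CCAAT box was marked as well. Each name gives the nearest collagen gene and the distance of the peak from its start, with minus for upstream. The first 2 were higher in progenitor-like than in Leydig-like nuclei.
Col13a1 −38.1 kb, chr10:62017001-62017300: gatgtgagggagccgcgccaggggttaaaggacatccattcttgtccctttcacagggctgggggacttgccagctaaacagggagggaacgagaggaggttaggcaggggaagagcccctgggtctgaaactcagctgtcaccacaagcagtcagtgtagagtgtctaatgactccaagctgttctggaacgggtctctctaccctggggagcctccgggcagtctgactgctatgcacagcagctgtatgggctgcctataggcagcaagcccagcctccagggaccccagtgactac
Col5a1 −27.7 kb, chr2:27858564-27858863: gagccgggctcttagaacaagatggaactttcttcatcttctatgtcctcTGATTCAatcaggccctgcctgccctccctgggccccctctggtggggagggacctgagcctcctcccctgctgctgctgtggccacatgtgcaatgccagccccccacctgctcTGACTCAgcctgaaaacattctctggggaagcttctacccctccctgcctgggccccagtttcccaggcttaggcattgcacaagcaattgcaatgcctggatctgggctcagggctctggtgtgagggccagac

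The next 3 were higher in Leydig-like than in progenitor-like nuclei, and hold 1 or 2 nuclear receptor cores each.
Col9a2 −71.6 kb, chr4:120967683-120967982: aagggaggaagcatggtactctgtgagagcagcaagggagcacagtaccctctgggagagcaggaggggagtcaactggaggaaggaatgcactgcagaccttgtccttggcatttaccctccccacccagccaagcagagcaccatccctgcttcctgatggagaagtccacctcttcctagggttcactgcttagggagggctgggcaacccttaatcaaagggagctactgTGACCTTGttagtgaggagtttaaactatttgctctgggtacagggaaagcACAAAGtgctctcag
Col9a2 −17.1 kb, chr4:121022170-121022469: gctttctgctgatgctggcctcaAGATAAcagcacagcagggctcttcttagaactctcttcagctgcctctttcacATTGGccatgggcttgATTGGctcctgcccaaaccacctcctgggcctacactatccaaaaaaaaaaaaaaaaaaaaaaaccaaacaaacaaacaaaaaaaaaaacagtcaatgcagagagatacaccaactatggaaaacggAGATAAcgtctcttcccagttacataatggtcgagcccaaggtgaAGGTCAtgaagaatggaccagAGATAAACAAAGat
Col18a1 −69.5 kb, chr10:77183100-77183399: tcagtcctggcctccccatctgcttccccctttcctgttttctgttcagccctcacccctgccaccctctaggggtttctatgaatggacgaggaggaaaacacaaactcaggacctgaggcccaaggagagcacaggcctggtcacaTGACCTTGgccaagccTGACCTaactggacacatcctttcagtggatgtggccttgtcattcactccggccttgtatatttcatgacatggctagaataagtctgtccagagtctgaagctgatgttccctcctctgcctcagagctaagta

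The last 4 were called higher than in all other nuclei, each with a ratio among the 3 largest of its class. The classes were Sertoli-like (*Col24a1*), mesonephric mesenchyme-like (*Col8a1*), surface epithelium-like (*Col3a1*) and germ-like (*Col13a1*). The *Col3a1* peak was also called in mesonephric mesenchyme-like nuclei.
Col24a1 +27.6 kb, chr3:145319946-145320245: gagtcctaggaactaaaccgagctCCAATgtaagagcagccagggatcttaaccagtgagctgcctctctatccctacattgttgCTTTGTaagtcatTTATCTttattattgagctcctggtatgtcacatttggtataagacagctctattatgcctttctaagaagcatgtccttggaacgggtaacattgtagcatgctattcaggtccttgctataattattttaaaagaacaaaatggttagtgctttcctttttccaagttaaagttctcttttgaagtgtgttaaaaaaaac
Col8a1 +21.3 kb, chr16:57733265-57733564: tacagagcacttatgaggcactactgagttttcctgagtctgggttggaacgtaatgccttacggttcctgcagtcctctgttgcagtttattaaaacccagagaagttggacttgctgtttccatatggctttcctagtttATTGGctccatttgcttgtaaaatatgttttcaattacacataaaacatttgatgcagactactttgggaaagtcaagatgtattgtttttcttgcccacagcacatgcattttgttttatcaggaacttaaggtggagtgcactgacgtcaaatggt
Col3a1 +68.8 kb, chr1:45380171-45380470: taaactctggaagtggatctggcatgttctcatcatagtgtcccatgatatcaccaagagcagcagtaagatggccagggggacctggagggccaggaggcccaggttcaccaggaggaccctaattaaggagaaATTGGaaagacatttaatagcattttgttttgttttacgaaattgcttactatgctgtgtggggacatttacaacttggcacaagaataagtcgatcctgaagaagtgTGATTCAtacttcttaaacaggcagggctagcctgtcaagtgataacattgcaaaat
Col13a1 +63.1 kb, chr10:61915815-61916114: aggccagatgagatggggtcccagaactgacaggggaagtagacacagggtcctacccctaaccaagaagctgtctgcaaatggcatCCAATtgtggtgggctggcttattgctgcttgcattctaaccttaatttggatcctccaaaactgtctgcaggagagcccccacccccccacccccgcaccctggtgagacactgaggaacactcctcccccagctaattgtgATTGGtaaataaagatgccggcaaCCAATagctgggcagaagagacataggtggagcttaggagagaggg

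Collagen promoters were more accessible in the mesenchymal and surface classes than in the others. Summed over the 36 promoter peaks, the level was 724 in mesonephric mesenchyme-like (interval 686 to 764), 716 in surface epithelium-like (653 to 783) and 705 in progenitor-like nuclei (684 to 727). It was 553 in germ-like (524 to 583), 458 in Leydig-like (420.3 to 499) and 421 in Sertoli-like nuclei (389.7 to 453). The first 3 intervals overlap each other, and all lie above those of the other 3 classes. Single collagen promoter peaks ran from 2.65 to 53.2 over all kept nuclei, with a median of 11.3, beside a median of 30.8 for promoters of other genes in the same windows and 23.2 for all 15733 promoter peaks.

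The comparison of progenitor-like with Leydig-like nuclei addresses how the presumed progenitor differs from the steroid-making cell. Of the 34 collagen promoter peaks with enough fragments, 29 (85.3%) were higher in progenitor-like nuclei, with a median log2 ratio of 0.70. Among promoters of other genes in the same windows 26 of 66 (39.4%) were higher there, with a median of −0.07, and the median over all promoter peaks was −0.12. By the 2-fold rule 7 of the 34 were called higher in progenitor-like nuclei, where 2.78% of all promoter peaks were, and 0 were called higher in Leydig-like nuclei, where 3.05% of all were. The 7 lay at *Col1a1*, *Col6a3*, *Col7a1*, *Col16a1*, *Col26a1* and, with a pair of peaks, *Col13a1*. Promoters of other genes gave 5 and 1 calls of 66.

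**Figure D1:**
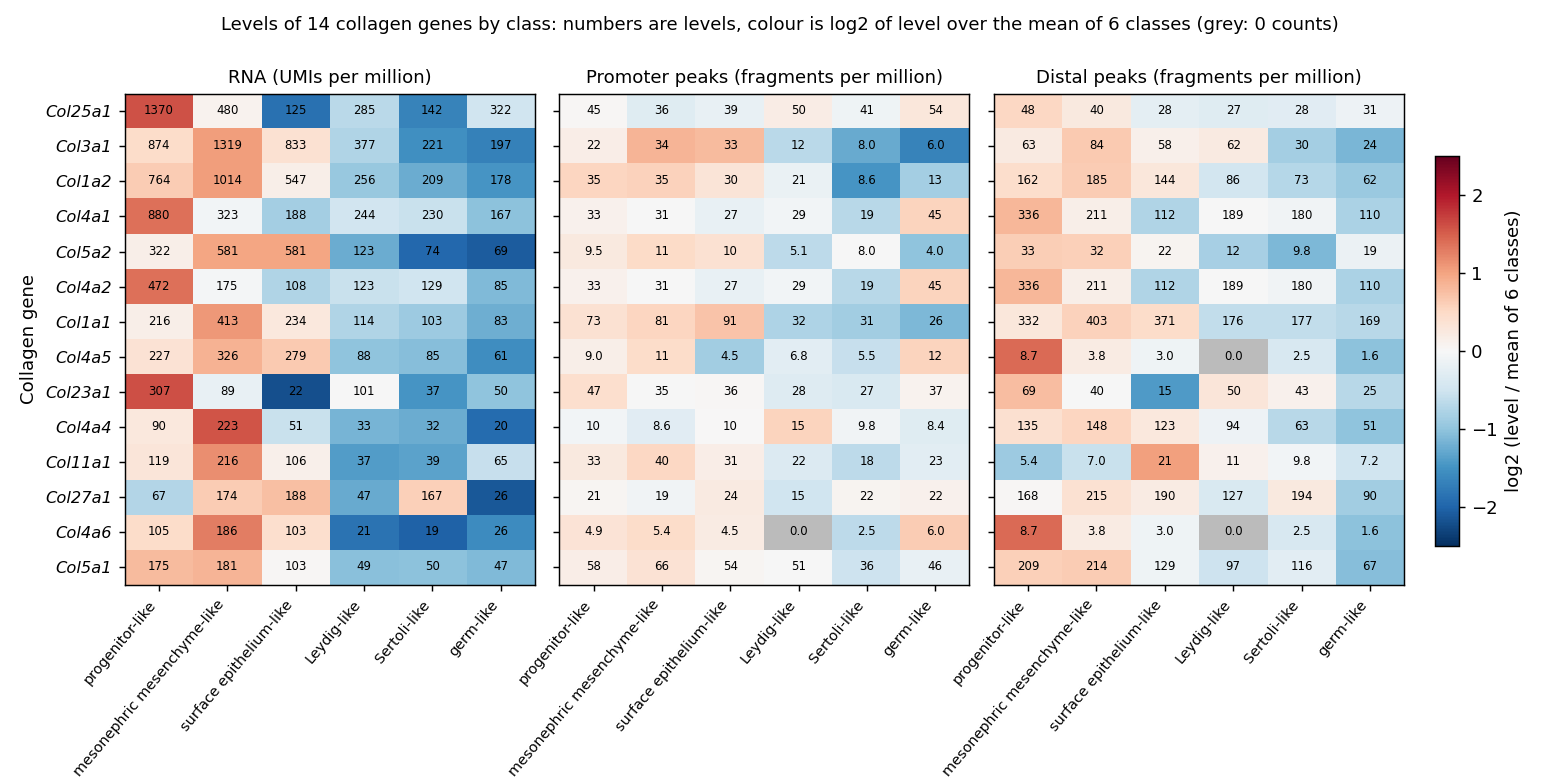
RNA (UMIs per 1000000), promoter peaks and distal peaks near the gene (both in unique fragments per 1000000 fragments at peaks of the class) for the 14 collagen genes named by the rule, 1 row for each gene and 1 column for each of the 6 classes. Numbers are levels, and colour is the log2 of the level over the mean of the 6 classes, grey standing for 0 counts. At promoters Col1a1 lies between 73.1 and 91.3 in the first 3 classes and between 25.7 and 32.5 in the other 3, while Col25a1, whose RNA is highest in progenitor-like nuclei, lies between 35.9 and 54.2 in all 6.

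Among fibrillar collagens the promoter ratio of progenitor-like to Leydig-like was above 1 for all 10 genes that had enough fragments, with the lower limit above 1 for 3 of them and a call by the 2-fold rule for 1. The promoter of *Col1a1*, the major chain of type I collagen, had levels of 73.1 in progenitor-like, 81.4 in mesonephric mesenchyme-like and 91.3 in surface epithelium-like nuclei. It had 32.5 in Leydig-like, 30.7 in Sertoli-like and 25.7 in germ-like nuclei, so that these 2 sets of classes did not overlap, and its ratio of progenitor-like to Leydig-like was 2.25 (1.61 to 3.23) when its promoter peaks were added. *Col1a2*, the partner chain, had 34.7, 35.4, 29.9, 21.4, 8.61 and 13.2 in the same order, lowest in Sertoli-like nuclei, with a ratio of 1.62 (1.07 to 2.57).

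The promoter of *Col3a1*, the chain of type III collagen, was at 34.3 in mesonephric mesenchyme-like, 32.9 in surface epithelium-like and 21.6 in progenitor-like nuclei. It was at 11.97 in Leydig-like, 7.99 in Sertoli-like and 6.02 in germ-like nuclei, and the ratio of progenitor-like to Leydig-like was 1.80 (1.04 to 3.40). *Col5a2* and *Col11a1*, whose chains join type V and type XI fibrils, had ratios of 1.86 and 1.5, and *Col5a1* 1.13. *Col27a1* lay between 14.53 in Leydig-like and 24.0 in surface epithelium-like nuclei, the smallest fold range among the fibrillar genes named here. The mixed mesonephric class held contractile-like, progenitor-like and surface epithelium-like nuclei as well as mesonephric ones, and these values stand for all of them. With clusters split more finely, *Col3a1* was at 28.4 in mesonephric mesenchyme-like, 24.2 in contractile-like and 24.3 in progenitor-like nuclei. *Col1a2* was at 26.8, 26.1 and 39.9 in the same order.

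Among the 6 type IV genes the ratio was above 1 for 4, with the lower limit above 1 for 1. *Col4a1* and *Col4a2*, the chains of nearly all basement membranes, start back to back and share 1 promoter peak, which had 45.4 in germ-like, 32.8 in progenitor-like, 30.5 in mesonephric mesenchyme-like, 29.1 in Leydig-like, 27.0 in surface epithelium-like and 19.1 in Sertoli-like nuclei. Its ratio of progenitor-like to Leydig-like was 1.13 (0.781 to 1.68), an interval that includes 1. *Col4a3* and *Col4a4*, chains of specialised basement membranes, also share a peak, with 15.4 in Leydig-like and 10.0 in progenitor-like nuclei and a ratio of 0.652 whose interval also includes 1. *Col4a5* was at 9.02 in progenitor-like against 6.84 in Leydig-like nuclei. *Col4a6* was at 4.93 in progenitor-like nuclei, and none of the fragments of Leydig-like nuclei fell in it.

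Of the transmembrane collagens, *Col25a1* had the promoter with the smallest fold between its highest and lowest class among those named, at 54.2 in germ-like, 50.4 in Leydig-like, 45.1 in progenitor-like, 41.2 in Sertoli-like, 38.9 in surface epithelium-like and 35.9 in mesonephric mesenchyme-like nuclei. *Col23a1* was at 47.3 in progenitor-like against 28.2 in Leydig-like nuclei, with a ratio of 1.68 (1.17 to 2.48). *Col13a1* was at 34.0 in progenitor-like and 32.5 in germ-like nuclei but at 12.8 in Leydig-like and 7.49 in surface epithelium-like nuclei, and its ratio of progenitor-like to Leydig-like was 2.65 (1.57 to 4.83). *Col13a1* and *Col16a1* fall outside the rule for named promoters and were singled out after their values were seen. *Col16a1*, a fibril-associated collagen, was at 82.4 in surface epithelium-like, 78.8 in mesonephric mesenchyme-like and 65.3 in progenitor-like nuclei, against 28.5 in germ-like, 23.1 in Leydig-like and 22.8 in Sertoli-like nuclei.

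Collagen promoters were also compared with all other nuclei by the 2-fold rule. Of 36 tested, 3 were called in germ-like nuclei (*Col2a1*, *Col8a1* and *Col5a3*), where 11.6% of all promoter peaks were, and 3 in mesonephric mesenchyme-like nuclei (*Col1a1*, *Col3a1* and *Col6a3*), where 1.31% of all were. A pair was called in surface epithelium-like nuclei (*Col2a1* and *Col6a1*; 2.73% of all), 1 in progenitor-like nuclei (*Col7a1*; 1.38% of all), 1 in Sertoli-like nuclei (*Col9a3*; 3.33% of all) and 0 in Leydig-like nuclei (2.0% of all). In at least 1 of these classes 9 of the 36 collagen promoter peaks (25%) were called, beside 20.6% of all promoter peaks and 9 of 69 promoters of other genes (13.0%). *Col9a3*, a chain of the cartilage collagen type IX, was the promoter called in Sertoli-like nuclei. Its level was 15.4 there, 10.4 in germ-like nuclei and at most 3.91 in the other 4 classes. The call compares Sertoli-like nuclei with all other nuclei, not with germ-like nuclei alone.

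The RNA of the same nuclei gives another reading of these genes. For 25 of 32 genes with enough promoter fragments and UMIs, the ratio of progenitor-like to Leydig-like was on the same side of 1 in RNA and at the promoter. The 7 on opposite sides were *Col25a1*, *Col4a3*, *Col4a4*, *Col6a1*, *Col6a5*, *Col8a2* and *Col19a1*. Both readings leaned 1 way: the promoter ratio was above 1 for 26 of 33 collagen genes, and the RNA ratio at least 2 for 23 of the 32. The count of 25 therefore does not show that the readings follow each other gene by gene. The share over all genes is not given here. The RNA ratios were the larger, with a median of 2.74 against 1.61 at promoters. Of 23 genes whose RNA was at least 2-fold higher in progenitor-like nuclei, 5 also had a promoter ratio of at least 2 (*Col6a3*, *Col12a1*, *Col13a1*, *Col16a1* and *Col26a1*), and for 11 the RNA ratio lay above the upper limit of the promoter ratio.

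*Col25a1* showed a wide gap between RNA and promoter. The start used for it lies close to the RefSeq start but over 1 kb from the 5′ end of the gene in GENCODE. Which peak is its promoter thus depends on the annotation. Its RNA was at 1369.6 CPM in progenitor-like, 480.2 in mesonephric mesenchyme-like, 322 in germ-like, 285 in Leydig-like, 142 in Sertoli-like and 125 in surface epithelium-like nuclei. The RNA ratio of progenitor-like to Leydig-like was 4.81 (4.62 to 5.02) and the promoter ratio 0.894 (0.672 to 1.21). Its distal peaks added together were at 48.0 in progenitor-like against 27.4 in Leydig-like nuclei, with a ratio of 1.75 (1.21 to 2.61), so at this locus the distal peaks and not the promoter lay on the side of the RNA.

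At *Col4a1* and *Col5a1* the promoter ratio was on the same side of 1 as the RNA but nearer to 1 than the distal ratio. The RNA of *Col4a1* was at 880.3 CPM in progenitor-like against 244 in Leydig-like nuclei, with a ratio of 3.61, while its promoter ratio had an interval that includes 1 and its distal peaks a ratio of 1.78 (1.55 to 2.06). The RNA ratio of *Col5a1* was 3.57, its promoter ratio 1.13 and its distal ratio 2.17 (1.79 to 2.65). For *Col1a1* all 3 readings were close, with 1.89 (1.76 to 2.02) in RNA, 2.25 at the promoter and 1.89 (1.63 to 2.19) over distal peaks. *Col18a1*, a basement membrane collagen, had no peak within 1 kb of the start used here. That start lies over 1 kb from the 5′ end of the gene in GENCODE. *Col18a1* went the other way in RNA, with 222 CPM in both Sertoli-like and surface epithelium-like nuclei, 117 in Leydig-like and 45.1 in progenitor-like nuclei. Its distal ratio was 1.09 (0.945 to 1.27).

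Over 40 genes with enough distal fragments and UMIs, 32 had distal and RNA ratios on the same side of 1, and the median distal ratio was 1.44. The lower limit of the distal ratio was above 1 for 23 genes and the upper limit below 1 for 3 (*Col6a5*, *Col9a2* and *Col20a1*). Neighbouring genes share some of these peaks, and distal peaks in general leaned the same way, 57.1% being higher in progenitor-like nuclei with a median log2 ratio of 0.19. When each gene was placed in the class of its highest RNA, among 38 genes with at least 100 UMIs, the summed distal level was highest in the same class for 26, and the promoter level for 13 of the 32 that had a promoter peak. That class was mesonephric mesenchyme-like for 22 genes and progenitor-like for 7. These classes also had the highest levels over the distal peaks near collagen genes added together, at 4608 and 4455. The count of 26 therefore does not show that distal peaks follow the RNA gene by gene. Collagen promoters hold fewer fragments, and their sums were close in mesonephric mesenchyme-like (724), surface epithelium-like (716) and progenitor-like nuclei (705). The counts of 26 and 13 thus do not rank distal peaks over promoters. Shares over all genes are not given. Free RNA reaches every class in droplet data: the erythroid-like nuclei, which should make no collagen, held collagen RNA at 1436 CPM in all, beside 1804 in germ-like, 2221 in Sertoli-like, 2345 in Leydig-like, 4389 in surface epithelium-like, 6931 in progenitor-like and 7094 in mesonephric mesenchyme-like nuclei. The part of free RNA in the RNA ratios was not tested.

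**Figure D2:**
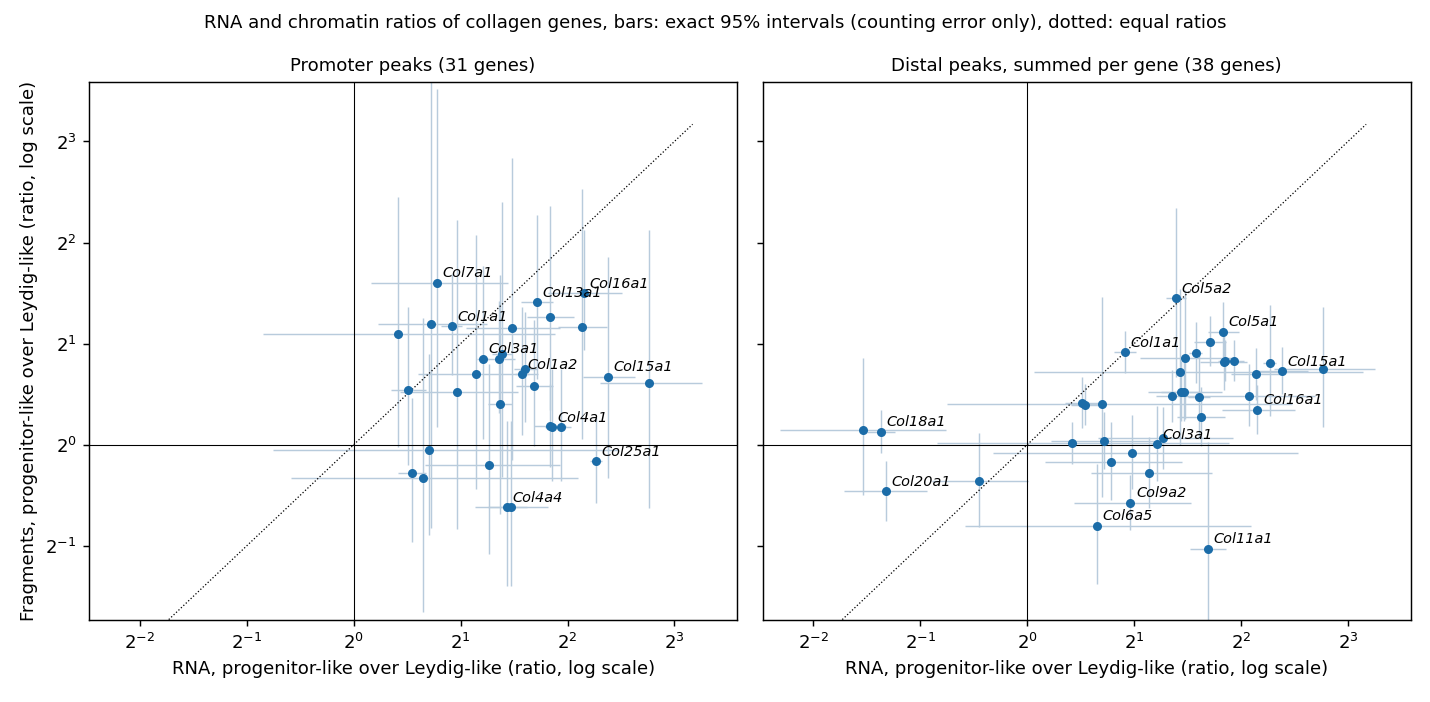
Ratio of progenitor-like to Leydig-like nuclei in RNA (x axis) against the ratio at promoter peaks (left) or over the distal peaks added together (right) of the same gene (y axis), both on log scales, 1 point for each collagen gene, with lines for exact 95% intervals that cover counting error only and may run past the frame. Most points lie below the dotted line of equal ratios, and genes without a fragment in Leydig-like nuclei are left out, so 31 of 32 promoters and 38 of 40 distal sums are drawn.

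The distal peaks made up most of the set. Of the 537, 275 lay in introns, 223 between genes, 22 in noncoding or untranslated parts of exons and 17 in coding exons, by the GENCODE M21 annotation of GRCm38. Of these, 227 lay inside a collagen gene, 196 of them inside the nearest one, and 87 inside another gene. Their median level was 5.37, beside 3.91 for all 93482 distal peaks, and their median GC content 49.7% beside 46.8%. Of the 642 peaks, 69 lay within 100 kb of at least 2 collagen starts. They are named for the nearest gene and count once in every count of peaks, but enter the promoter and distal sums of each gene they lie near. In 97 of the 642 at least 1 of the 6 classes had no fragment, which is no evidence that the peak is closed. A ratio to a class without fragments was taken against a floor of 3 fragments.

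Of 412 distal peaks with enough fragments, 268 (65.0%) were higher in progenitor-like than in Leydig-like nuclei, beside 57.1% of all distal peaks, and the median log2 ratios were 0.43 and 0.19. By the 2-fold rule 85 of the 412 (20.6%) were called higher in progenitor-like nuclei, where 11.6% of all distal peaks were. The other way 23 (5.58%) were called, where 9.12% of all were. That count was 39 with the cuts of the matrix, 7 with a minimum of 50 fragments and 10 within 50 kb. The 85 became 41 within 50 kb, from fewer peaks. The median of 0.43 became 0.69 with a minimum of 50 fragments and 0.72 with an automatic doublet threshold. The 20-fragment minimum left out 125 of the 537. It applies to both classes added together, and progenitor-like nuclei hold 5879024 fragments at peaks against 1169717 in Leydig-like nuclei. A peak high in Leydig-like nuclei therefore passes it less readily. With a minimum of 1 fragment the counts were 85 towards progenitor-like and 31 towards Leydig-like nuclei. With 50 they were 77 and 7. The shares of all distal peaks under these other settings are not given here.

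**Figure D3:**
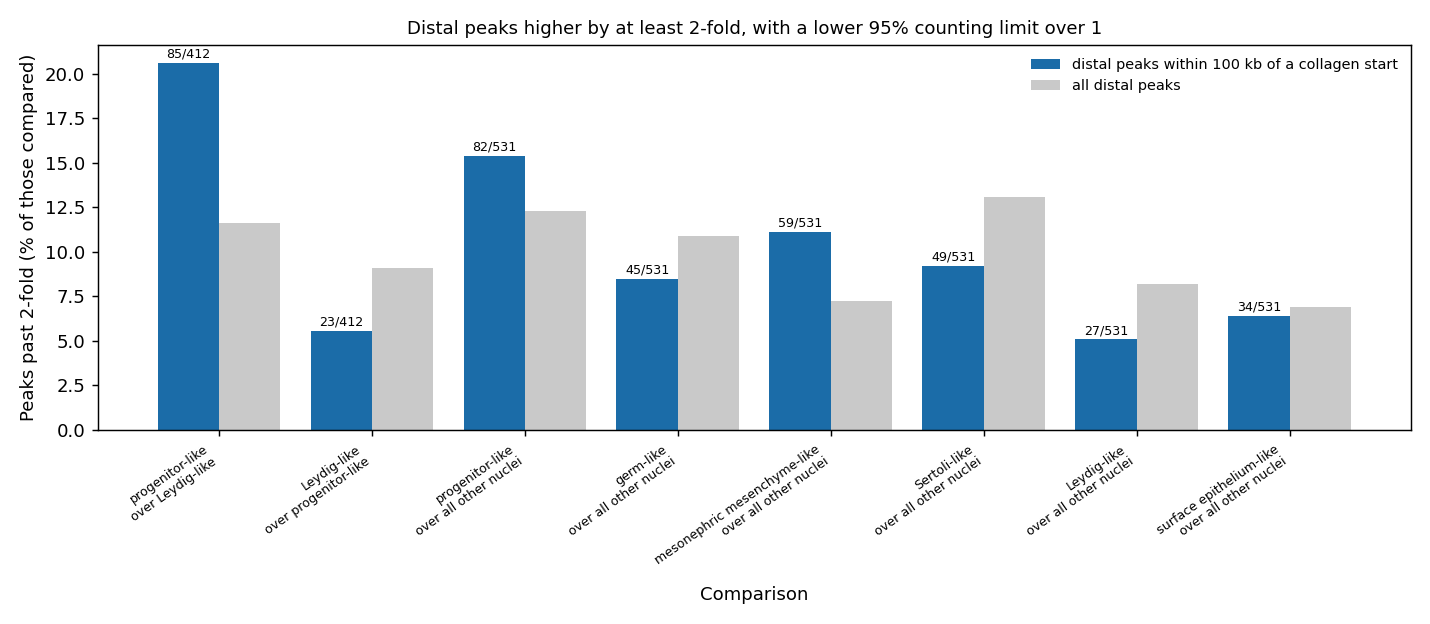
Share of peaks called at least 2-fold higher (percent of peaks tested), for distal peaks near collagen genes (blue, with the number called and tested) beside all distal peaks of the genome (grey), in the 2 directions of progenitor-like against Leydig-like nuclei and for each of the 6 classes over all other nuclei. Distal peaks near collagen genes reach 20.6% for progenitor-like over Leydig-like nuclei beside 11.6% of all distal peaks, and 5.58% beside 9.12% in the other direction.

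The 5 largest ratios towards progenitor-like nuclei were at *Col13a1*, *Col27a1*, *Col1a1*, *Col6a2* and *Col5a1*. The peak 38.1 kb upstream of *Col13a1* (chr10:62016706-62017596), whose centre is printed above, lies between genes and had levels of 11.1 in progenitor-like, 9.11 in mesonephric mesenchyme-like, 4.82 in germ-like, 1.84 in Sertoli-like, 1.497 in surface epithelium-like and 0.855 in Leydig-like nuclei. That is 65 fragments against 1 in the pair compared, with a ratio of 12.9 (2.24 to 519). The peak 60.1 kb inside *Col27a1* (chr4:63275145-63275963) lies in an intron and had 55 fragments against 1, with a ratio of 10.9. With clusters split more finely it was at 14.98 (10.2 to 21.3) in contractile-like and 7.17 (4.97 to 10.02) in progenitor-like nuclei. Contractile-like nuclei came from both the progenitor-like (844) and the mesonephric mesenchyme-like class (274).

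The peak 61.7 kb upstream of *Col1a1* (chr11:94874077-94874878) was at 18.8 in mesonephric mesenchyme-like, 18.0 in surface epithelium-like, 8.85 in progenitor-like, 4.305 in Sertoli-like, 4.01 in germ-like and 0.855 in Leydig-like nuclei. It was thus higher in the first 2 of these classes than in the progenitor-like nuclei that the rule compared. In the finer split it was at 18.4 (12.99 to 25.2) in contractile-like, 11.04 (4.44 to 22.7, from 7 fragments) in mesonephric mesenchyme-like and 8.01 (5.67 to 10.999) in progenitor-like nuclei. Those 12.9 kb upstream of *Col6a2*, a beaded filament chain (chr10:76635664-76636707), and 27.7 kb upstream of *Col5a1* (chr2:27858275-27859152) had ratios of 9.55 and 8.95. The *Col5a1* peak was highest in surface epithelium-like nuclei, at 13.5, against 7.65 in progenitor-like nuclei and 0.855 in Leydig-like ones. Each of the 5 had 1 fragment in Leydig-like nuclei, so the upper limits of the ratios are wide. Peaks with none there were ranked by a bound against 3 fragments, which places them below peaks with 1 fragment. They include a peak in an intron 48.7 kb past the *Col9a1* start, with 68 fragments against 0 and a level at least 4.51-fold higher when set against that floor of 3, and one 40.9 kb upstream of *Col13a1*, with 50 against 0 and at least 3.32-fold. The lower limits of their exact 95% intervals were smaller, at 3.57 and 2.599. Both lie outside the rule and were singled out after their values were seen.

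Towards Leydig-like nuclei the peaks with the largest ratios had 7 to 26 fragments in the lower class, and so narrower intervals. The peak 71.6 kb upstream of *Col9a2* (chr4:120967396-120968270) was at 12.8 in Leydig-like and 10.5 in Sertoli-like nuclei and at most 2.01 in the other 4 classes, with none in surface epithelium-like nuclei, and its ratio was 10.8 (4.13 to 31.2). Another peak of that gene, 17.1 kb upstream (chr4:121021911-121022729), was at 31.6 in Leydig-like, 7.23 in germ-like, 6.15 in Sertoli-like, 4.42 in progenitor-like, 2.99 in surface epithelium-like and 2.68 in mesonephric mesenchyme-like nuclei. It had a ratio of 7.15 (4.22 to 12.3) to progenitor-like and of 6.41 (4.16 to 9.74) to all other nuclei, and so was high in Leydig-like nuclei with no other class near it.

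The remaining 3 of that direction lay near *Col16a1*, *Col8a2* and *Col18a1*. The peak 83.1 kb downstream of the *Col16a1* start (chr4:130130496-130131448) lies in a coding exon of *Hcrtr1*, an orexin receptor gene, and was at 18.8 in Leydig-like, 11.1 in Sertoli-like and at most 4.49 in the other classes, with a ratio of 10.1 (4.67 to 23.0). The peak 10.8 kb upstream of *Col8a2* (chr4:126275462-126276456) was at 16.2 in Leydig-like and 10.2 in mesonephric mesenchyme-like nuclei against 2.21 in progenitor-like nuclei, a ratio of 7.35 (3.44 to 16.2). With clusters split more finely it was at 20.5 (10.9 to 35.1, from 13 fragments) in mesonephric mesenchyme-like nuclei, an interval that includes the Leydig-like level. The peak 69.5 kb upstream of *Col18a1* (chr10:77182725-77183775) had a ratio of 6.70 (2.59 to 18.0). These peaks are assigned by distance alone, and whether any of them acts on a collagen gene was not tested.

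**Figure D4:**
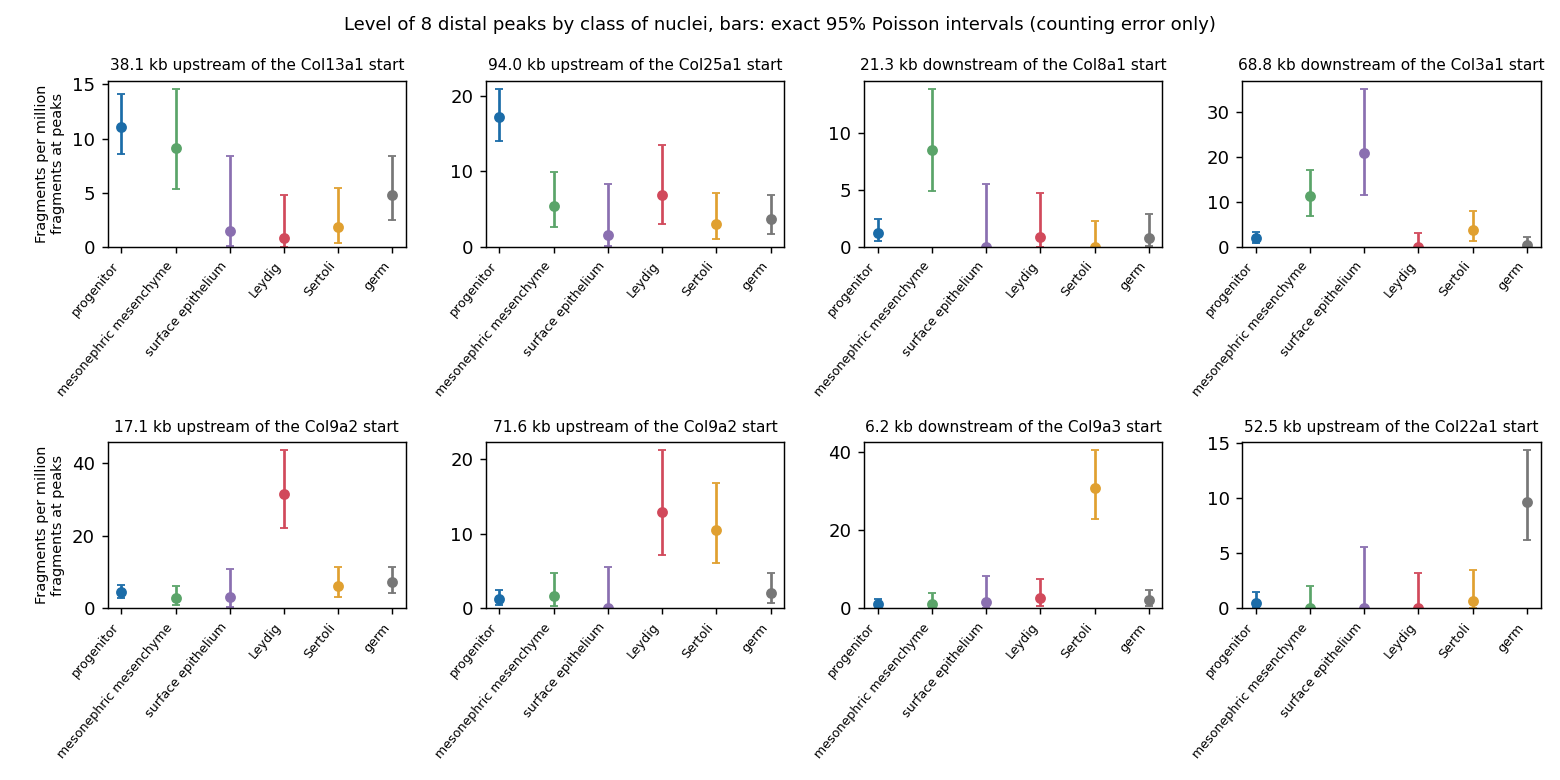
Level of 8 of the named distal peaks (unique fragments per 1000000 fragments at peaks of the class, linear scale) in the 6 classes of at least 300 nuclei, with exact 95% Poisson intervals that cover counting error only. The peak 6.2 kb downstream of the Col9a3 start stands at 30.7 in Sertoli-like nuclei and at most 2.56 elsewhere, while the peak 71.6 kb upstream of Col9a2 is high in both Leydig-like and Sertoli-like nuclei, at 12.8 and 10.5.

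Against all other nuclei, 266 of 531 distal peaks (50.1%) were called in at least 1 of the 6 classes, beside 53.1% of all distal peaks. The classes were not equally represented. In progenitor-like nuclei 82 (15.4%) were called, beside 12.3% of all, and in mesonephric mesenchyme-like nuclei 59 (11.1%), beside 7.23% of all. The first count was 125 when levels were scaled by all fragments and 27 with the collagen genes kept among the variable genes, where the progenitor-like name fell to the cycling cluster alone. Sertoli-like nuclei had 49 (9.23%, beside 13.1% of all), germ-like nuclei 45 (8.47%, beside 10.9%), surface epithelium-like nuclei 34 (6.40%, beside 6.91%) and Leydig-like nuclei 27 (5.08%, beside 8.21%). With a minimum of 50 fragments the Sertoli-like count was 30 and the germ-like count 23. Within 50 kb the counts were 38 in progenitor-like, 32 in mesonephric mesenchyme-like, 26 in germ-like, 20 in surface epithelium-like and 10 in Leydig-like nuclei, from fewer peaks. For these other settings the numbers tested and the shares of all distal peaks are not given here. With clusters split more finely, 48 (9.04%) were called in mesonephric mesenchyme-like and 46 (8.66%) in contractile-like nuclei, beside 5.82% and 5.38% of all distal peaks.

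Sertoli-like nuclei had some of the most specific distal peaks, at *Col9a3* and *Col24a1*. The *Col9a3* pair lies 6.2 and 7.3 kb inside the start. The former (chr2:180603485-180604406) was at 30.7 (22.8 to 40.5) in Sertoli-like nuclei and at most 2.56 in the other 5 classes, 18.6 times the level of all other nuclei (10.97 to 32.6), and the latter was at 17.8, 22.7 times the rest (10.7 to 52.1). The RNA of *Col9a3* was at 85.6 CPM in Sertoli-like nuclei and between 4.91 and 11.5 in the other 5. RNA, promoter and both distal peaks were thus highest in the same class, with germ-like nuclei not far below at the promoter. The peak 27.6 kb inside *Col24a1*, a fibrillar collagen, was at 14.1, 16.3 times the rest (7.65 to 37.1).

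In germ-like nuclei the largest ratios to all other nuclei were 28.5, found both in a coding exon of *Col22a1* 52.5 kb upstream of the start used here (9.63, interval of the ratio 9.80 to 113) and in an intron of *Col6a5* 66.7 kb upstream of *Col6a6* (12.04, 10.96 to 94.1). The start of *Col22a1* and of *Col6a6* in the feature table lies over 1 kb from the 5′ end of the gene in GENCODE. So do those of *Col18a1*, *Col25a1* and *Col27a1*, and distances there depend on the annotation. The peak 63.1 kb inside *Col13a1* was at 14.05, 13.9 times the rest (7.03 to 29.3).

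In mesonephric mesenchyme-like nuclei the largest ratios were at *Col8a1*, *Col12a1* and *Col6a5*. The peak 21.3 kb inside *Col8a1*, a short chain collagen, was at 8.57, 9.72 times the rest (4.23 to 23.2). With clusters split more finely it was at 23.7 in the nuclei still named mesonephric mesenchyme-like, from 15 fragments, and at 0.483 in contractile-like nuclei, from 1 fragment, so within the mixed class its level was high in the mesonephric share. In the same split the peak 64.9 kb inside *Col12a1* was at 14.2 (6.49 to 26.9) and 4.83 (2.32 to 8.88), with overlapping intervals, and the one in an intron of *Col6a4* 47.9 kb upstream of *Col6a5* at 26.8 (15.6 to 42.9) and 4.35 (1.99 to 8.25).

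Surface epithelium-like nuclei led at a peak in an intron of *Col5a2*, 68.8 kb past the *Col3a1* start, at 20.96 and 6.66 times the rest (3.37 to 12.4), and at 88.3 kb past *Col6a6*, at 18.0 and 5.46 times the rest. Both were also called in the mixed mesonephric mesenchyme-like class, at 11.3 and 10.2. With clusters split more finely they were at 4.73 and 3.15 in mesonephric mesenchyme-like and at 20.7 and 21.7 in surface epithelium-like nuclei. The third, 86.4 kb past *Col14a1*, rested on 6 fragments. Progenitor-like nuclei had smaller ratios. They led at 77.6 kb inside *Col4a6* (5.13, 2.16 to 14.1), 68.8 kb inside *Col5a1* (4.24, 2.48 to 7.55) and 94.04 kb upstream of *Col25a1* (chr3:130086388-130087316), which was at 17.2 and 4.03 times the rest (2.73 to 6.08). In the finer split the *Col5a1* peak was at 10.6 (6.66 to 16.1) in contractile-like and 7.802 (5.49 to 10.8) in progenitor-like nuclei, with overlapping intervals. Leydig-like nuclei led at the *Col9a2* −17.1 kb and *Col16a1* +83.1 kb peaks above and at a peak in an intron of *Nt5dc1* 41.7 kb upstream of *Col10a1*, at 11.97 and 4.50 times the rest (2.24 to 8.58).

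By locus, the *Col4a1* and *Col4a2* pair held the largest number of distal peaks called in at least 1 class, 16 of 26, where 53.1% of all distal peaks were called. Of these, 13 were called in progenitor-like nuclei, where 12.3% of all distal peaks were. The 13 lay in introns, 8 in *Col4a1* and 5 in *Col4a2*. In mesonephric mesenchyme-like nuclei 2 were called (7.23% of all) and in Sertoli-like nuclei 1 (13.1% of all). The levels of the 13 in progenitor-like nuclei ran from 5.27 to 47.3, and their ratios to all other nuclei from 2.002 to 3.65. Added together, the distal peaks of *Col4a1* and *Col4a2* were at 336 (322 to 352) in progenitor-like, 211 (191 to 233) in mesonephric mesenchyme-like, 189 (165 to 216) in Leydig-like, 179.6 (160 to 201) in Sertoli-like, 112 (88.3 to 141) in surface epithelium-like and 110.4 (97.7 to 124) in germ-like nuclei. The order differs from that of the shared promoter, where germ-like nuclei were the highest and the progenitor-like interval overlapped that of Leydig-like nuclei.

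The loci of *Col6a6*, *Col18a1* and *Col6a1* followed, with 14 of 19 called distal peaks at *Col6a6* and 13 at each of *Col18a1* (of 27) and *Col6a1* (of 21). The loci are ranked by number, and the share at *Col18a1* was below that of all distal peaks. At *Col6a1*, a chain of beaded filament collagen VI, the distal sum was highest in mesonephric mesenchyme-like nuclei at 313.5 (289 to 340) and lowest in germ-like nuclei at 105 (92.4 to 118). At *Col18a1* surface epithelium-like nuclei were highest at 268 (230 to 310.3) and germ-like nuclei lowest at 179.8 (164 to 197). At *Col6a6* Sertoli-like nuclei were highest at 135 (117 to 154), beside 122 (106 to 138.5) in mesonephric mesenchyme-like nuclei, whose interval overlaps.

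Small classes are given by sums only. In 45 pericyte-like nuclei the collagen promoters reached 859 (674 to 1081), beside 192 (108 to 317) in 43 erythroid-like nuclei, 305 (199 to 447) in 66 immune-like, 439.8 (362 to 529) in 94 endothelial-like and 553 (431 to 697) in 78 supporting-like nuclei. Distal peaks of the basement membrane collagens were at 577 (427 to 763) in pericyte-like, 480.5 in progenitor-like, 428 (351 to 516) in endothelial-like, 363 in mesonephric mesenchyme-like, 283 in Leydig-like, 245 in Sertoli-like, 238 in surface epithelium-like, 218 (145 to 315) in supporting-like, 163 in germ-like, 128 (61.5 to 236) in erythroid-like and 117 (56.2 to 216) in immune-like nuclei. Pericytes and endothelial cells share the basement membrane of vessels, and the interval of both classes includes the progenitor-like level.

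The share of calls showed no steady order with distance from the start. Called higher in progenitor-like than in Leydig-like nuclei were 7 of 34 peaks within 1 kb, 7 of 33 from 1 to 5 kb, 4 of 16 from 5 to 10 kb, 12 of 73 from 10 to 25 kb, 18 of 100 from 25 to 50 kb and 44 of 190 from 50 to 100 kb. Called the other way were 0, 1, 2, 5, 2 and 13 in the same order. The first of these bins holds the collagen promoters, to be read beside 2.78% and 3.05% of all promoter peaks in the 2 directions, and the others hold distal peaks, to be read beside 11.6% and 9.12% of all distal peaks. The median level was 11.3 within 1 kb and 6.28 from 1 to 5 kb, and lay between 4.99 and 5.34 beyond.

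**Figure D5:**
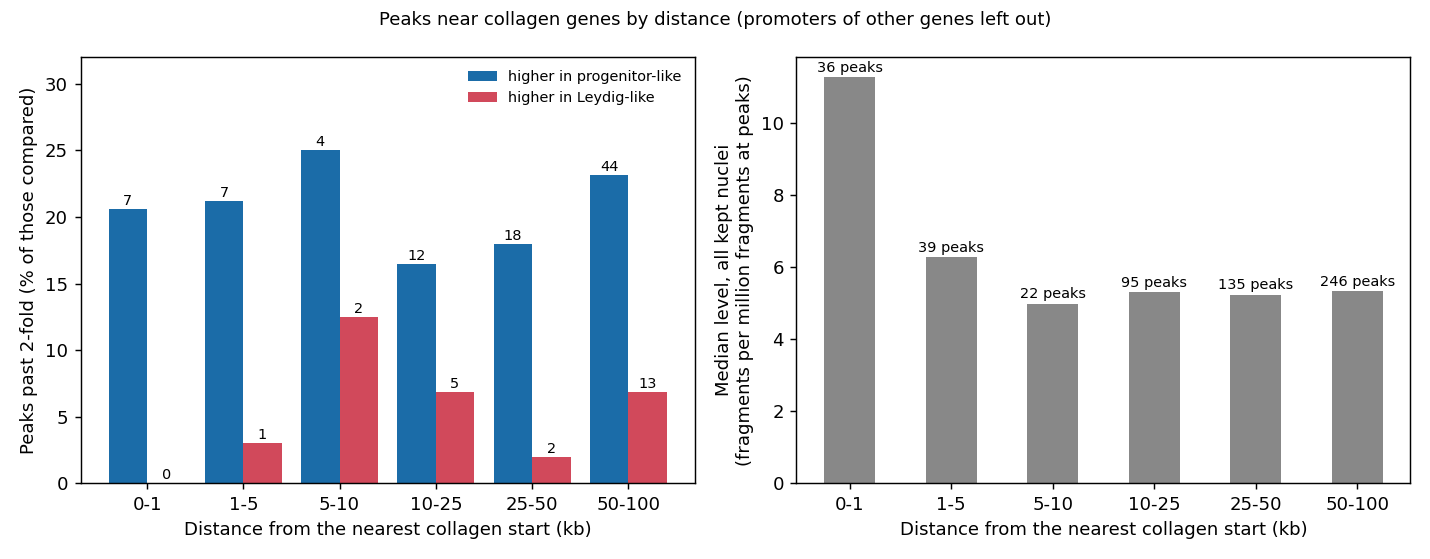
Peaks by distance from the nearest collagen start (kb), with promoters of other genes left out. Bars on the left give the share of compared peaks called at least 2-fold higher in progenitor-like or in Leydig-like nuclei, with the number of peaks above each bar, and bars on the right give the median level over all kept nuclei. The progenitor-like bar is the taller in every bin, and the median level is 11.3 within 1 kb and at most 6.28 beyond. The shares over all peaks of the genome, which differ between promoters and distal peaks, are not drawn.

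None of the 3 most accessible peaks in these windows was called by the 2-fold rule in any class. The highest level belonged to a peak in a coding exon of *Angptl6*, 63.2 kb upstream of *Col5a3*, at 120 in Leydig-like, 107 in Sertoli-like, 99.0 in progenitor-like, 97.5 in mesonephric mesenchyme-like, 94.3 in surface epithelium-like and 91.5 in germ-like nuclei. Its ratio of Leydig-like to all other nuclei was 1.205 (1.005 to 1.44). The next were promoters of *Thrap3*, 84.0 kb upstream of *Col8a2*, with levels between 81.5 in germ-like and 103 in Leydig-like nuclei, and of *Sfr1*, 39.5 kb upstream of *Col17a1*, with levels between 83.1 in germ-like and 123 in surface epithelium-like nuclei. The latter was 1.38 times the rest (1.09 to 1.73) in surface epithelium-like nuclei. Among peaks with at least 100 fragments over the 6 classes, the class of highest level held a median of 29.1% of the summed levels at distal peaks, 25.2% at collagen promoters and 21.8% at promoters of other genes. Over the genome the medians were 28.0% at all distal peaks and 21.5% at all promoter peaks.

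The genes that process collagen include prolyl and lysyl hydroxylases, the chaperone *Serpinh1*, propeptide proteases and lysyl oxidases. Of 29 listed, 27 had promoter peaks with enough fragments. Of these, 19 were higher in progenitor-like nuclei and 8 in Leydig-like nuclei, with a median log2 ratio of 0.14. The collagen genes gave 26 and 7 of 33 and a median of 0.60. Of all promoter peaks, 38.4% were higher in progenitor-like nuclei, with a median of −0.12, so the median of the processing genes lay between that of the collagens and that of all promoters. The lower limit was above 1 for 3, *P3h2* at 1.84 (1.17 to 3.04), *P3h4* at 1.38 (1.06 to 1.82) and *Sparc*, a collagen-binding matrix protein, at 1.77 (1.13 to 2.93), and for 11 collagen genes. A ratio of at least 2 with such a limit was reached by 0 of the 27 and by 6 of the 33 collagen genes, beside 2.78% of all promoter peaks.

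By family, the promoters of 10 of 10 fibrillar, 4 of 5 fibril-associated, 4 of 6 basement membrane, 3 of 5 beaded filament, 2 of 3 transmembrane and 0 of 1 short chain collagen genes had a ratio of progenitor-like to Leydig-like above 1. The lower limit was above 1 for 3, 1, 1, 2, 2 and 0 of them in that order. The anchoring, multiplexin and ungrouped collagens had 1 tested gene each, with a ratio above 1 in each and a lower limit above 1 for 1, 0 and 1. Of all promoter peaks, 38.4% were higher in progenitor-like nuclei. The share of all promoter peaks with such a lower limit is not given here. The distal peaks of the fibrillar genes added together were at 1579.6 in mesonephric mesenchyme-like, 1373 in surface epithelium-like and 1362 in progenitor-like nuclei. They were at 1058 in Sertoli-like, 952 in Leydig-like and 890 in germ-like nuclei.

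Motif letters at the peak centres are given for the distal peaks near collagen genes beside all distal peaks. AGGTCA on either strand was in 22.9% of the distal peaks near collagen genes and in 24.5% of all distal peaks. Among those called in Leydig-like nuclei it was in 14 of 27 (51.9%), beside 40.3% of all distal peaks so called, and in surface epithelium-like nuclei in 8.82%, beside 15.7%. CAAGGTCA, which contains it, was in 5 of the 27 (18.5%), beside 15.7% of all Leydig-called distal peaks and 6.52% of the distal peaks near collagen genes.

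ACAAAG was in 19 of the 49 distal peaks called in Sertoli-like nuclei (38.8%), beside 32.3% of all so called and 23.8% of the distal peaks near collagen genes. AGATAA was in 18.6% and TGANTCA in 12.1% of the distal peaks near collagen genes, beside 19.3% and 9.69% of all distal peaks. The core of the CTCF motif was in 11.2% beside 8.53%, in 9 of the 45 called in germ-like nuclei, beside 9.93% of all so called, and in 3 of the 82 called in progenitor-like nuclei (3.66%), beside 1.91% of all so called. TATAAA was in 5 of those 82 (6.1%), beside 20% of all distal peaks called in progenitor-like nuclei. For Leydig-like and Sertoli-like calls it was in 18.5% and 16.3%, beside 14.4% and 12.8% of all so called. For germ-like, mesonephric mesenchyme-like and surface epithelium-like calls it was in 2.22%, 16.9% and 5.88%, beside 8.93%, 20.2% and 15.1%. The GC box was in 9 of the 49 called in Sertoli-like nuclei (18.4%), beside 8.25% of all so called, and in 7 of the 59 called in mesonephric mesenchyme-like nuclei (11.9%), beside 5.98%. For Leydig-like and progenitor-like calls it was in 11.1% and 8.54%, beside 6.35% and 4.81%. For germ-like and surface epithelium-like calls it was in 15.6% and 5.88%, beside 22.3% and 11.3%. Over all distal peaks near collagen genes it was in 12.7%, beside 12.1% of all distal peaks. Each match is a run of letters in the reference, and binding of a factor was not tested.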

How the data were processed

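Nuclei of whole E14.5 mouse testes were profiled with 10x multiome in 1 RNA and 1 ATAC library. The authors ran Cell Ranger ARC 2.0.1 on mm10, and deposited its matrix of raw counts, in which a gene has UMIs and a peak has transposase cuts. Peaks had been called on the pooled nuclei. The matrix held 9833 of the 378459 barcodes in the fragment list, so barcodes had already been selected. No further filter on quality, doublets or free RNA had been applied. Per the file headers, the deposited list of unique fragments also states how many read pairs supported each (1.09 on average), and fragment ends had been moved to the transposase cut. Both ends of a fragment often fall in the same peak. Unique fragments were therefore counted here in place of the cuts of the matrix, so that each counts once in a peak.

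Nuclei were kept with mitochondrial and ribosomal UMIs each under 10%, haemoglobin UMIs under 0.5%, more than 500 genes, more than 20% of their fragments at peaks and 250 to 25000 fragments at peaks, thresholds taken from the study's methods. Blacklisted regions were not filtered here. Of 7668 nuclei, the 470 (6.13%) with the highest Scrublet score (scanpy 1.11.5) were removed by rank, so part of the doublets may remain. The study used another doublet caller. No free RNA was removed. Clusters were made in Seurat 5.3.0 on R 4.3.3 from 30 principal components of 2000 variable genes without collagen genes, at a resolution of 0.3, which gave 12 clusters in 11 classes named by the highest mean z score of marker log2 CPM. No name was given where the 10 genes of largest fold held more markers of another class, where fewer than 3 markers of the name reached 1 CPM, or where UMIs were very low and no marker of the name led. A difference from the study's cell types may come from these rebuilt names.

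Levels, intervals and calls were computed in Python 3.11.15 with scipy 1.17.1, as the text defines them. A pseudocount of 0.5 fragments was used for median log2 ratios. The rule of calls was run on simulated Poisson counts with known ratios, which cannot test variation between nuclei or animals. Named were the promoters of the 14 collagen genes of highest RNA in any of the 6 classes, the 5 called distal peaks of largest ratio in each direction, the 3 of largest ratio in each class, the 5 genes with most called distal peaks and the 3 peaks of highest level. The genes, gene lists and tests were chosen with earlier results of these data known. The marker lists overlap genes that the study had picked from this library. Promoter sequences are from RefSeq on GRCm38.p6, peak sequences from the same assembly, and gene context from GENCODE M21. With 1 library for each assay, no test between animals and no p-value was possible. Of 14 alternatives, 1 was chosen after seeing the data.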

Additional observations from a re-analysis of the deposited data

How the results depend on the processing

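Each of 14 alternatives was applied to 6 results, and none turned a direction. The median log2 ratio of progenitor-like to Leydig-like nuclei at collagen promoters stayed between 0.57 and 0.80, and the number of genes on the same side of 1 in RNA and promoter between 22 and 28. At distal peaks the median of 0.43 became 0.69 with a minimum of 50 fragments and 0.72 with the automatic threshold of Scrublet, and was between 0.35 and 0.72 in all. The 23 distal peaks called higher in Leydig-like nuclei became 39 with the cuts of the matrix, 7 with a minimum of 50 fragments and 10 within 50 kb. Within 50 kb, where 354 peaks remain in the set, the 85 called higher in progenitor-like nuclei became 41 and the 266 called in any class 145. Fewer peaks are tested with the smaller window and the higher minimum, and counting cuts raised every count of called distal peaks. The minimum applies to both classes added together, and the progenitor-like class holds more fragments. With minimums of 1, 20 and 50 fragments the Leydig-like count was 31, 23 and 7. The progenitor-like count was 85, 85 and 77. Shares of all distal peaks under the alternatives are not given here. For the Scrublet threshold the cause was not tested. Scaling by all fragments moved the median log2 ratio of all peaks from 0.08 to 0.18, and the count called in progenitor-like nuclei over all others from 82 to 125. With the collagen genes kept among the variable genes that count was 27, since the name then fell to the cycling cluster of 780 nuclei alone, while 2583 nuclei that also scored highest for progenitor stayed unnamed and counted among the others. The comparisons with Leydig-like nuclei under that setting rest on the cycling cluster too. The mesonephric mesenchyme-like class had no count without doublet removal, where its cluster stayed unnamed, nor with the automatic Scrublet threshold or the stricter minimums, where it had 296 and 286 nuclei. Without the cycling progenitor-like cluster, an alternative chosen after seeing the data, no count moved by over 1.5 times. No paired analysis was possible because each assay has 1 library. Depth limits the distal peaks most, 125 of which had under 20 fragments over both classes.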
